A study of Homo sapiens with 6 samples.

Results

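The genes described here are the spliceosomal small nuclear RNA (snRNA) genes and the many copies of them in the human genome, with the U7 snRNA of histone pre-mRNA processing. Membership was set by name alone: a gene was included when the reference name in the assemblies began with RNU followed by 1, 2, 4, 5, 6, 7, 11, 12, 4ATAC or 6ATAC. This gave 888 gene entries of the 29056 genes with a value, out of 1807 annotated genes with such names. No threshold on a measured value entered the choice, but these classes were selected on results of the same comparison, in which the TPM of single snRNA genes and of their class sums had been seen in the 6 libraries. The counts and calls below therefore describe the set and support no statement about it beyond the values. By class there were 47 U1 entries, 38 U2, 54 U4, 18 U5, 619 U6, 76 U7, 7 U4atac, 20 U6atac, 6 U11 and 3 U12.

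HaCaT cells, an immortalised human keratinocyte line, were transfected in high glucose medium with serum, using a lipid reagent (Lipofectamine 2000). The interference group received 100 pmol of an siRNA against PSENEN, which encodes a subunit of γ-secretase, and the control group a mismatch siRNA. The amount of the mismatch siRNA was not given. Each group held 3 libraries of total RNA, and a group given transfection reagent alone, described in the labels, was not analysed here. RNA was taken at 48 and 72 h and the labels do not say which time was sequenced, nor whether the libraries came from separate cultures, so p-values measure only the spread between these libraries. All comparisons rest on 1 cell line and 1 siRNA target.

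Small nuclear RNAs are short, stable noncoding RNAs that form the core of the particles that remove introns. U1 pairs with the start of the intron, U2 with the branch point, and U4, U5 and U6 join as a preassembled unit in which U6 is later released from U4 to form the catalytic centre. U11, U12, U4atac and U6atac do the same work on a rare class of introns, and U7 directs the cleavage of histone messages. Most carry a ring of Sm proteins on a short uridine-rich site, whereas U6 and U6atac are made by another polymerase and carry LSm proteins. Some human snRNAs, such as U1, come in several functional copies, and short retroposed copies, most with a name ending in P, are scattered through the genome.

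The sequences below are some of those on which the results turn, shown 5′ to 3′ as DNA on the transcribed strand from the GENCODE 29 transcripts (GRCh38). RNU1-1 at chr1:16514122-16514285 (minus strand) is shown because 8 annotated genes carry exactly these 164 bases. Its capitals mark the letters that pair with the 5′ splice site and the Sm site. RNU2-1, at chr17:43233787-43233977 (minus strand), is the class reference against which RNU2-2P was compared, and its capitals mark the 8 of 191 positions at which RNU2-2P differs. RNU4-1 at chr12:120293097-120293237 and RNU4-2 at chr12:120291763-120291903 (both minus strand) are neighbours whose levels parted in 1 library, and capitals mark their 4 differences in 141 bases.
RNU1-1: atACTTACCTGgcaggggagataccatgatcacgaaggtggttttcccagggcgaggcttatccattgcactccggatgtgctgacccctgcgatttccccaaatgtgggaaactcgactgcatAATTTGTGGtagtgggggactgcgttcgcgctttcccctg
RNU2-1: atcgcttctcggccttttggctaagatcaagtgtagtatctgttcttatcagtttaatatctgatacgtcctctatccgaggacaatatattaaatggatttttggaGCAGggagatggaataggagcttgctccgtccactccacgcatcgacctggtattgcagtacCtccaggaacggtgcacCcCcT
RNU4-1: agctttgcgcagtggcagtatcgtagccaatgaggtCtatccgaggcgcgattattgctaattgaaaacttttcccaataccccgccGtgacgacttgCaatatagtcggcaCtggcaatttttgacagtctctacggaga
RNU4-2: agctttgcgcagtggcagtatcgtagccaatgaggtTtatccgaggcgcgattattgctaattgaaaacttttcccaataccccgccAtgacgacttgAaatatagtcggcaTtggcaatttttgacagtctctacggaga

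Values are TPM, a level per kilobase of transcript scaled to each library's total, summed over the transcripts of a gene, and a gene that a library does not list was counted as 0, which can be a failed estimate. The estimated depth was 9.16 to 15.6 gigabases of aligned sequence per library, and the files used here give no counts. PSENEN itself had 1.75, 2.08 and 1.496 TPM in PSENEN siRNA libraries 1 to 3 and 6.58, 12.6 and 7.47 TPM in mismatch siRNA libraries 1 to 3, without overlap, a change of -1.79 on the log2(TPM + 1) scale (SE 0.25, limma adjusted p = 0.0479). With any 1 library left out the adjusted p of PSENEN was 0.0903 to 0.157. All 10 keratinocyte markers searched were at 1 TPM or more in every library, and none of 14 markers of fibroblasts, endothelium, leukocytes, melanocytes and muscle was (9 of them were listed at 0 throughout). Of those 14, 4 passed 1 TPM in at least 1 library, the highest being VWF at 4.42 TPM. The summed keratinocyte markers ranged from 4657 to 5051 TPM in PSENEN siRNA libraries and from 7024 to 10109 TPM in mismatch siRNA libraries, and the part of this difference in the results below was not tested. In such bulk samples, fewer cells of a kind and less RNA per cell cannot be told apart.

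Most snRNA-named entries were at the bottom of the measured range. The median of their mean levels was 0.377 TPM, 654 of 888 had a mean under 1 TPM, 20 had at least 5 TPM, and 7 had at least 100 TPM. Those 7 were RNU2-2P and the 6 genes named RNU1-1, RNU1-2, RNU1-3, RNU1-4, RNU1-27P and RNU1-28P. All 888 entries were single exons at their GENCODE 29 position, 462 were listed in every library and 127 in only 1. Together they took 0.831, 0.519 and 0.485% of the library's TPM in PSENEN siRNA libraries 1 to 3 and 0.490, 0.588 and 0.420% in mismatch siRNA libraries 1 to 3.

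The copies were mostly far from their class reference in sequence. Over the 886 entries with a GENCODE sequence the median identity to the reference of the class was 82.1%, 56 were at least 95% identical to it and 21 were exact copies. The entries at or above 95% had a median level of 0.864 TPM and the rest 0.361 TPM, but this differed by class. U6, with 35 of the 56, had 0.416 against 0.355 TPM, and the medians were in the reverse order for U2 (0.0745 against 0.445 TPM), U6atac (0.228 against 0.334 TPM) and U7 (0.0671 against 0.31 TPM, with RNU7-1 alone at or above 95%). Most copies either lay within no other gene on the same strand (491) or in an intron of one (363), with 15 in an annotated UTR of another gene and 19 in a noncoding exon. Those 19 include an RNU11 and an RNU12 entry that overlap the other entry of their own symbol. Introns of genes on the opposite strand were not searched, so the 491 can include copies inside such genes. Entries inside another gene on the same strand made up 44.0% of those listed, against 33.8% of all annotated genes with such names.

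The functional letters of each class were searched on the transcribed strand of its copies, and a match is only a description. The 5′ splice site element of U1, ACTTACCTG, was in 17 of the 47 U1 entries and in 28.9% of the 121 annotated U1 names, and the U1 Sm site, AATTTGTGG, was in 21 of the 47 and in 41.3% of those annotated. The branch point element of U2, GTAGTA, was in 23 of 38 entries (50.7% of annotated U2 names). The U5 loop, GCCTTTTAC, was in 10 of 18 entries (45.2% of annotated U5 names). The share of entries was below that of annotated names for another U2 element (7 of 38 against 21.1%). The same held for the elements of U4 (18 of 54 against 38.9%) and U6atac (7 of 20 against 43.9%). It held too for U7 (38 of 76 against 57.0%) and U11 (2 of 5 against 50%). The share was above for another U5 element (10 of 18 against 45.2%) and U6 (341 of 619 against 54.2%). It was also above for U4atac (5 of 7 against 61.1%), so the direction differed by element. The 2 U1 elements do not overlap.

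In the comparison of the siRNA groups, 269 snRNA-named genes had at least 1 TPM in at least 3 libraries and were tested, and 4 had an adjusted p under 0.05 in limma fitted over all genes. RNU2-2P was lower with PSENEN siRNA, and RNU1-3, RNU1-124P and RNU6-1284P were higher. RNU1-124P and RNU6-1284P reached 1 TPM only in the PSENEN siRNA libraries, so they entered the test through the group where they were high. The 4 calls were 1.49% of the members tested, against 0.504% of all 16457 genes tested (0.158% called higher and 0.346% called lower). The groups did not overlap for 21 members that were higher (7.81%) and 12 that were lower (4.46%), against 7.83% and 14.4% of all genes tested. The median change was 0.04 over the members tested and -0.05 over all genes tested, and 18 members had an unadjusted p under 0.05.

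**Figure D1:**
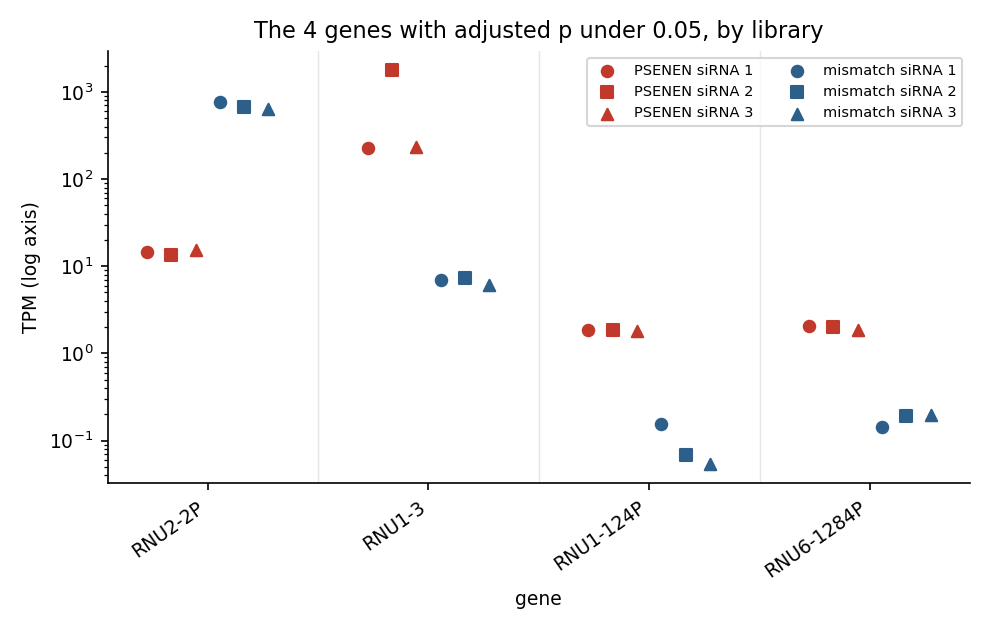
TPM (log axis) of the 4 snRNA-named genes with an adjusted p under 0.05, with 1 point per library, red for PSENEN siRNA and blue for mismatch siRNA, and symbols for the library number. RNU2-2P sits between 13.3 and 15.3 TPM with PSENEN siRNA and between 644 and 770 TPM with mismatch siRNA, and the other 3 genes lie higher with PSENEN siRNA, RNU1-3 with 1765 TPM in library 2 against 227 and 232 TPM in libraries 1 and 3.

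U1, which selects the 5′ splice site, had the highest class sum and the least stable single genes. The 8 genes with the sequence of RNU1-1 are RNU1-1 to RNU1-4 on chromosome 1, RNU1-27P and RNU1-28P on chromosome 14, and 2 genes that the name rule does not take, RNVU1-18 and a gene named only U1. Any read from 1 of them matches the other 7, so the level given to each single gene is uncertain. RNU1-1 had 1721, 30.4 and 1441 TPM in PSENEN siRNA libraries 1 to 3 and 1529, 36.3 and 1372 TPM in mismatch siRNA libraries 1 to 3. Library 2 of both groups was thus low and the groups overlapped, with a change of -0.0022 (SE 2.0, adjusted p = 1.00, limma).

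The other genes of the identical set were high and low in other libraries. RNU1-2 had 1385, 13.95 and 10.1 TPM with PSENEN siRNA and 12.2, 1125 and 7.89 TPM with mismatch siRNA. RNU1-4 had 1390, 7.24 and 6.04 TPM with PSENEN siRNA and 1253, 1128 and 5.69 TPM with mismatch siRNA. Both were thus high in some libraries of each group and low in others, and both overlapped. RNU1-27P had 880, 891 and 795 TPM with PSENEN siRNA and 10.2, 679 and 10.3 TPM with mismatch siRNA. RNU1-28P had 1204, 1221 and 1069 TPM with PSENEN siRNA and 10.2, 958 and 954 TPM with mismatch siRNA. For these 2 genes every PSENEN siRNA library was above every mismatch siRNA library, yet neither passed the test (adjusted p = 0.275 and 0.557, limma).

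RNU1-3 was the member of the set with a called change. It had 227, 1765 and 232 TPM in PSENEN siRNA libraries 1 to 3 and 7.01, 7.26 and 6.17 TPM in mismatch siRNA libraries 1 to 3. The groups did not overlap, library 2 of the PSENEN siRNA group stood above the other 2, and the change was 5.86 (SE 0.77, adjusted p = 0.0430, limma). RNU1-3 shared its assembled locus with 18, 18 and 6 transcripts in the PSENEN siRNA libraries (itself included) and with 2 in each mismatch siRNA library, and the part of this in the change was not tested. Leaving out any single library other than PSENEN siRNA library 2 ended the call, with adjusted p up to 0.148.

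Summed over the 8 identical genes, U1 had 8007, 4818 and 5601 TPM in PSENEN siRNA libraries 1 to 3 and 4739, 5558 and 4035 TPM in mismatch siRNA libraries 1 to 3. The groups overlapped, with 6142 ± 1662 against 4777 ± 763 TPM (SD, n = 3 each). The number of the 8 genes above 100 TPM was 7, 4 and 6 in the PSENEN siRNA libraries and 4, 6 and 4 in the mismatch siRNA libraries. The library with 7 such genes had the largest sum, and the largest of the 3 libraries with 4 reached 4818 TPM. The coefficient of variation over the 6 libraries was 25.2% for the sum, and 50.1 to 184% for the 6 single genes with a name in the rule. A sum of unrelated genes also varies less than the single genes, and whether the copies offset each other was not tested.

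**Figure D2:**
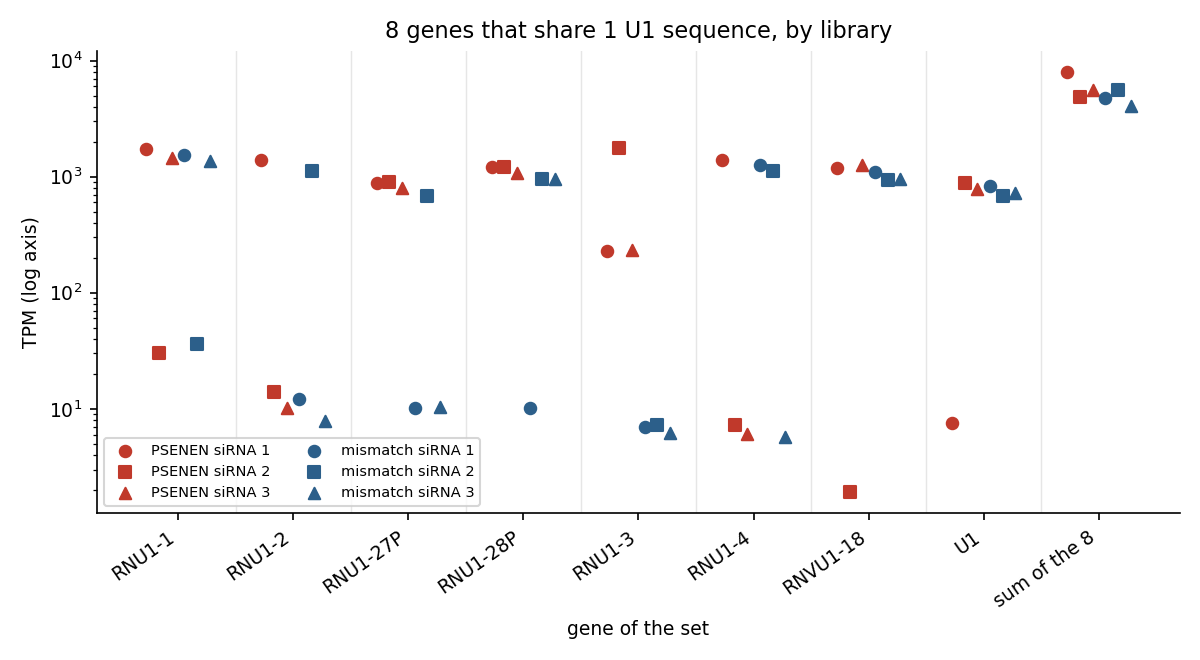
TPM (log axis) of the 8 genes with the sequence of RNU1-1 and of their sum, with 1 point per library, red for PSENEN siRNA and blue for mismatch siRNA, and symbols for the library number. Each single gene lies between 679 and 1765 TPM in some libraries and between 1.91 and 36.3 TPM in others, apart from RNU1-3 at 227 and 232 TPM in 2 libraries. The sum lies between 4035 and 8007 TPM.

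The U1 class sum over all 47 entries was 4805 ± 1782 TPM with PSENEN siRNA and 3092 ± 812 TPM with mismatch siRNA (SD, n = 3 each), a log2 ratio of 0.64 with overlapping groups. When the genes named RNVU1 or only U1 were added, an addition chosen after seeing the data, the sums were 9395, 6140 and 6884 TPM against 4979, 5812 and 5104 TPM, and the groups no longer overlapped. Outside the identical set the most abundant U1 copy was RNU1-120P, with 12.1, 15.7 and 14.1 TPM against 22.4, 21.7 and 16.1 TPM, lower without overlap but with an adjusted p of 0.265 (limma). RNU1-134P, a copy in the gene DNAJC5, had 8.96, 0.460 and 0.348 TPM against 11.5, 9.03 and 10.4 TPM. The groups just failed to overlap, only libraries 2 and 3 of the PSENEN siRNA group were far down, and its adjusted p was 0.280 (limma). These 2 copies were named after their values were seen.

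RNU1-124P, a diverged U1 copy in an intron of FNTA on chromosome 8 that is 78.7% identical to RNU1-1, had 1.84, 1.85 and 1.81 TPM with PSENEN siRNA and 0.154, 0.0684 and 0.0546 TPM with mismatch siRNA. The groups were far apart at low levels, and the change was 1.38 (SE 0.19, adjusted p = 0.0458, limma). The mean coverage per base behind these values was 8.18, 7.60 and 6.23 reads with PSENEN siRNA and 0.830, 0.331 and 0.225 reads with mismatch siRNA. In every PSENEN siRNA library the copy was assembled as a locus of its own, and in every mismatch siRNA library it was placed in a locus of 9 to 12 transcripts. The change had an adjusted p of 0.105 to 0.148 with any 1 mismatch siRNA library left out (limma), and without a PSENEN siRNA library the gene fell below the filter and was not tested. Only the PSENEN siRNA libraries reached 1 TPM, so the gene entered the test through the group where it was high.

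U2, which binds the branch point, was the 1 class whose sums did not overlap between the groups, and RNU2-2P carried this difference. The class sum was 35.5, 38.9 and 45.3 TPM in PSENEN siRNA libraries 1 to 3 and 793, 691 and 669 TPM in mismatch siRNA libraries 1 to 3, a log2 ratio of -4.17. RNU2-2P made up 93.4% of the class sum over the 6 libraries. Without it the sums were 25.5 ± 4.53 and 24.8 ± 2.29 TPM (SD, n = 3 each), a log2 ratio of 0.04.

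RNU2-2P, at chr11:62841619-62841809 on the minus strand, had 14.6, 13.3 and 15.3 TPM in PSENEN siRNA libraries 1 to 3 and 770, 664 and 644 TPM in mismatch siRNA libraries 1 to 3. All 3 PSENEN siRNA libraries were low and the spread within each group was small, with 14.4 ± 1.02 against 693 ± 67.6 TPM (SD, n = 3 each). The change was -5.49 (SE 0.11, adjusted p = 1.29e-05, limma), and it passed in all 19 alternative fits. Coverage per base was 64.7, 54.8 and 52.7 reads against 4158, 3215 and 2663 reads. The gene is annotated within the first exon, an untranslated exon of 241 bases, of a transcript of WDR74 on the same strand. WDR74 encodes a nuclear protein with WD repeats.

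The assembly around RNU2-2P differed between the groups in the same way as its level. In the PSENEN siRNA libraries it was alone in its assembled locus, and in the mismatch siRNA libraries it was in a locus of 13 to 15 transcripts, itself included. Of the 2 annotated WDR74 transcripts whose first exon holds it, 1 was listed, in the mismatch siRNA libraries only, at 3.18, 2.12 and 9.31 TPM. The WDR74 gene as a whole had 35.01, 29.96 and 38.4 TPM with PSENEN siRNA and 38.3, 36.9 and 25.7 TPM with mismatch siRNA, and its groups overlapped. Whether the assembled locus had a part in the fall of RNU2-2P was not tested, and both moved with the siRNA group in all 6 libraries.

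No other U2 entry was called, and of those tested 2 others did not overlap. RNU2-2P and RNU2-1 share their first 107 bases, and counted from 1 at the 5′ end RNU2-2P differs from RNU2-1 by G108A, C109A, A110T, G111A, C170T, C187T, C189T and T191C. RNU2-1 was at 0.0231 to 0.177 TPM in the 6 libraries, below the filter, and 11 annotated genes share its sequence, with a sum of 0.893 to 2.55 TPM. A gene named only U2 at chr17:43290291-43290481, 99.5% identical to RNU2-1 and 96.3% to RNU2-2P, had 50.5, 70.0 and 55.2 TPM with PSENEN siRNA and 72.2, 65.5 and 60.1 TPM with mismatch siRNA. These values overlapped, with a change of -0.18 (adjusted p = 0.633, limma). The diverged copies RNU2-31P (4.52, 4.55 and 4.60 against 4.84, 3.85 and 4.35 TPM) and RNU2-63P (2.79, 5.07 and 3.86 against 3.24, 3.92 and 3.83 TPM) overlapped as well. RNU2-39P, at 0.0154, 0.433 and 0.562 TPM against 1.12, 1.12 and 1.04 TPM, was lower without overlap (adjusted p = 0.277, limma). RNU2-58P, in an intron of SKA2, was higher without overlap at 3.23, 3.53 and 3.39 TPM against 0.178, 2.33 and 0.232 TPM (adjusted p = 0.213, limma). These 2 copies were also named after their values were seen.

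U4, which holds U6 in an inactive fold until the spliceosome is activated, had class sums of 119, 91.2 and 123 TPM with PSENEN siRNA and 139, 119 and 105 TPM with mismatch siRNA. The groups overlapped, with a log2 ratio of -0.12. RNU4-1 had 49.4, 50.5 and 46.5 TPM against 47.6, 41.3 and 34.9 TPM, with a change of 0.25 (SE 0.13, adjusted p = 0.459, limma). Its neighbour RNU4-2 had 40.4, 4.61 and 42.8 TPM against 51.7, 40.6 and 35.7 TPM, with a change of -0.99 (SE 0.77, adjusted p = 0.607, limma). Only PSENEN siRNA library 2 was low for RNU4-2, whereas RNU4-1 was at its highest in that library. Relative to RNU4-2, RNU4-1 carries T37C, A88G, A99C and T113C, and 52.3% of the 31-base words of RNU4-1 occur in another annotated snRNA gene. The third most abundant entry, RNU4-42P, had 1.75, 0.696 and 0.692 TPM against 2.93, 3.48 and 3.61 TPM, without overlap, and its adjusted p was 0.127 (limma).

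U6, the catalytic snRNA, had the largest number of entries and a class sum that hardly varied. The sums were 389, 410 and 428 TPM with PSENEN siRNA and 414, 379 and 406 TPM with mismatch siRNA, a log2 ratio of 0.03. The sum had a coefficient of variation of 4.34% over the 6 libraries, and the median over its 180 tested entries was 49.7%. Unrelated entries would also vary less in sum than singly. RNU6-513P, in the RRP7BP pseudogene, had the highest mean and gave 1.12% of the sum, with 5.11, 0.475 and 4.34 TPM against 7.14, 4.996 and 5.21 TPM. RNU6-142P had 4.39, 4.32 and 4.199 TPM against 4.08, 3.995 and 3.84 TPM, without overlap but with a change of 0.09 (adjusted p = 0.793, limma).

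The 7 identical U6 genes, RNU6-1, RNU6-2, RNU6-9 and the copies RNU6-3P to RNU6-6P, varied more singly than in sum, as unrelated genes would too. RNU6-2 had 4.62, 5.03 and 1.39 TPM against 3.51, 3.54 and 4.02 TPM, and RNU6-1 had 0.943, 0.789 and 2.32 TPM against 1.09, 0.959 and 2.08 TPM. RNU6-9 had 2.71, 0.971 and 0.660 TPM against 2.39, 3.54 and 1.73 TPM. Their groups overlapped in each case, and the sum of the 7 was 12.5 ± 0.547 TPM with PSENEN siRNA and 12.2 ± 0.807 TPM with mismatch siRNA (SD, n = 3 each). RNU6-7 and RNU6-8, which share another sequence, did not exceed 0.455 and 0.597 TPM, both at 0 in PSENEN siRNA library 3 and each at 0 in 1 mismatch siRNA library.

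RNU6-1284P, an 81.3% identical U6 copy in an intron of the cohesin gene STAG1, was the U6 entry with a called change. It had 2.09, 2.005 and 1.86 TPM with PSENEN siRNA and 0.142, 0.191 and 0.195 TPM with mismatch siRNA. The 2 groups were well apart, and the change was 1.34 (SE 0.19, adjusted p = 0.0458, limma). As for RNU1-124P, it was a locus of its own in every PSENEN siRNA library and in a locus of 12 to 17 transcripts in every mismatch siRNA library, and the part of this in the change was not tested. With any 1 mismatch siRNA library left out, its adjusted p was 0.110 to 0.148 (limma), and without a PSENEN siRNA library it too fell below the filter. RNU6-1284P likewise entered the test only through the PSENEN siRNA group, where it was high.

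U5, whose loop holds the exon ends together, had class sums of 56.1, 57.1 and 62.0 TPM with PSENEN siRNA and 65.5, 37.1 and 37.5 TPM with mismatch siRNA. The groups overlapped through mismatch siRNA library 1, and the log2 ratio was 0.32. RNU5E-1 had 10.96, 12.7 and 11.9 TPM against 12.4, 10.8 and 3.998 TPM, and RNU5F-1 had 10.6, 11.4 and 12.03 TPM against 11.6, 7.16 and 4.04 TPM. RNU5A-1 had 8.04, 9.96 and 10.7 TPM against 8.59, 3.18 and 7.80 TPM. Each of these was low in 1 or 2 mismatch siRNA libraries and overlapped, with adjusted p of 0.605, 0.438 and 0.484 (limma). RNU5D-1 (10.0, 5.21 and 8.25 against 8.74, 0.493 and 6.25 TPM) and RNU5B-1 (5.20, 2.14 and 7.07 against 6.87, 4.54 and 6.31 TPM) overlapped too. The 5 U5 reference genes gave 75.8% of the class sum.

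Among the snRNAs of the minor spliceosome, U6atac and U4atac had reference genes under 5 TPM in every library, and RNU11 and RNU12, summed by symbol, were above them in each. RNU6ATAC had 3.75, 4.29 and 4.19 TPM against 3.72, 4.37 and 3.28 TPM, and RNU4ATAC had 1.45, 3.37 and 1.69 TPM against 1.69, 2.25 and 0.996 TPM. Both overlapped, with adjusted p of 0.835 and 0.760 (limma). RNU4ATAC11P, a copy in the UBE2R2 gene with 2.58, 2.63 and 2.26 TPM against 2.11, 2.39 and 2.13 TPM, had a mean of 2.35 TPM over the 6 libraries against 1.91 TPM for the RNU4ATAC gene itself, within the spread of the latter. The other abundant copies, RNU4ATAC18P (2.29, 2.24 and 1.95 against 0.916, 2.99 and 0.155 TPM) in the SOD2 gene, RNU6ATAC23P (2.82, 1.56 and 1.45 against 1.61, 1.70 and 1.59 TPM) and RNU6ATAC24P (0.0670, 1.89 and 1.499 against 1.53, 1.37 and 0.124 TPM), overlapped between the groups.

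RNU11 and RNU12 each carried 2 entries at 1 start site, and the level moved between the entries. The 134-base RNU11 entry had 14.1, 0.00832 and 22.2 TPM against 15.8, 10.1 and 13.1 TPM, and in PSENEN siRNA library 2 the 131-base entry was listed at 19.4 TPM instead. Summed by symbol, RNU11 had 14.1, 19.4 and 22.2 TPM with PSENEN siRNA and 15.8, 10.1 and 15.6 TPM with mismatch siRNA, with overlap. The copy RNU11-2P, at 4.07, 3.53 and 3.49 TPM against 2.56, 4.21 and 3.31 TPM, overlapped as well, and RNU12-2P did not exceed 0.634 TPM. RNU12 had 13.7, 13.6 and 2.38 TPM against 17.1, 15.3 and 12.9 TPM on an entry of 664 bases, and in PSENEN siRNA library 3 a further 40.1 TPM on the 150-base entry, which the other 5 libraries listed at 0. In assembled bases as a share of the library, in parts per 1000000, which are not divided by length, RNU12 had 7.36, 7.34 and 6.14 with PSENEN siRNA and 8.67, 7.69 and 6.70 with mismatch siRNA. The library with the highest sum of both RNU12 entries in TPM, at 42.4, was therefore the lowest of the 6 in bases.

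U7, which pairs with histone pre-mRNA, had class sums of 48.6 ± 2.06 TPM with PSENEN siRNA and 46.7 ± 1.87 TPM with mismatch siRNA (SD, n = 3 each). The functional gene RNU7-1 was at most 0.139 TPM in any library and gave 0.141% of the class sum. The sum was spread over copies: RNU7-79P had 0.334, 7.95 and 7.56 TPM with PSENEN siRNA and 0.258, 7.40 and 7.99 TPM with mismatch siRNA. Library 1 of both groups was low for this copy, and the change was 0.04 (SE 1.02, adjusted p = 0.991, limma). RNU7-19P had 2.57, 3.15 and 3.43 TPM against 2.87, 2.54 and 3.26 TPM. RNU7-143P had 1.12, 4.23 and 6.38 TPM against 2.51, 2.11 and 1.23 TPM, also with overlap.

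**Figure D3:**
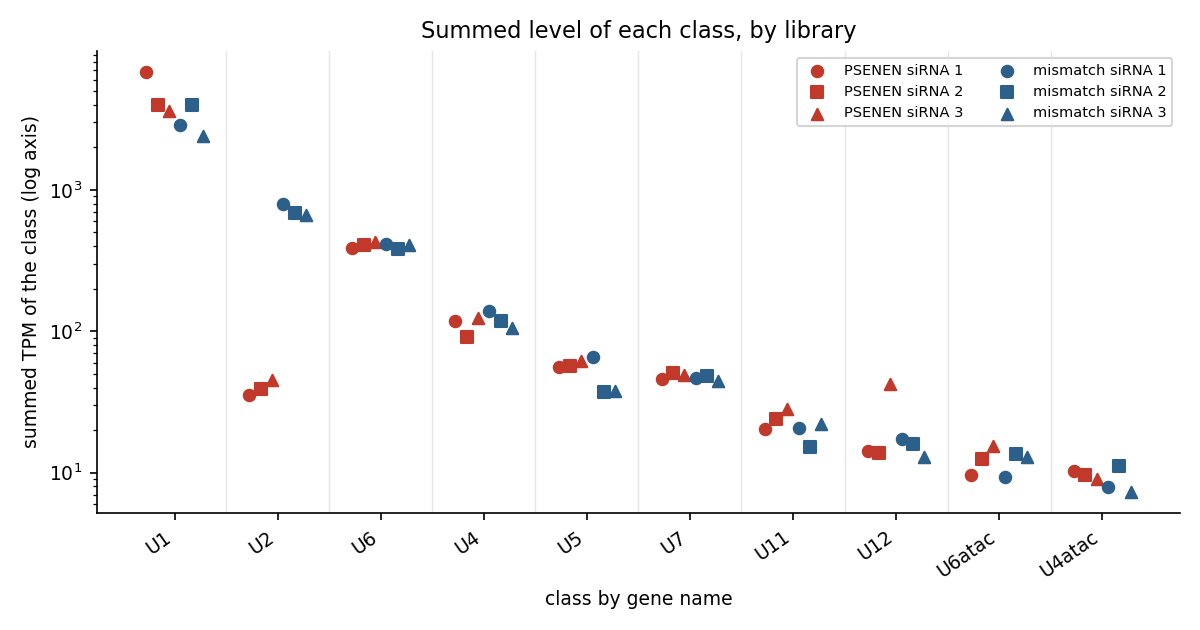
Summed TPM (log axis) of all entries of each class, with 1 point per library, red for PSENEN siRNA and blue for mismatch siRNA, and symbols for the library number. The U2 sums are 35.5 to 45.3 TPM with PSENEN siRNA and 669 to 793 TPM with mismatch siRNA, the U12 sum is high in PSENEN siRNA library 3 alone, and the points of the other classes overlap between the groups.

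Across the classes, single genes moved far more between libraries than other genes of the study did. Of the 269 members tested, 131 (48.7%) had a highest library at least 10-fold above the lowest or were listed at 0 in a library, against 1670 of all 16457 genes tested (10.1%). Of these, 19 members and 435 of all genes had a library at 0. Among genes with a mean of at least 5 TPM the counts were 12 of 19 members (63.2%) and 194 of 10147 genes (1.91%). The median coefficient of variation was 49.8% for members and 23.0% for all genes tested. The 25 other snRNA-type genes tested were similar to the members, with 11 (44.0%) past 10-fold, and protein-coding genes had 3.85%. The coefficient of variation of the class sum was below the median of the tested members in every class other than U2 and U12. A sum over many entries varies less than its entries even where these are unrelated. The contrast therefore does not show that levels moved between entries, which was not tested. The 2 values were 4.30% and 68.3% for U7, 14.2% and 46.2% for U4, and 39.4% and 71.3% for U1, against 98.6% and 58.9% for U2 and 58.7% and 41.5% for U12 with its 1 tested entry.

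**Figure D4:**
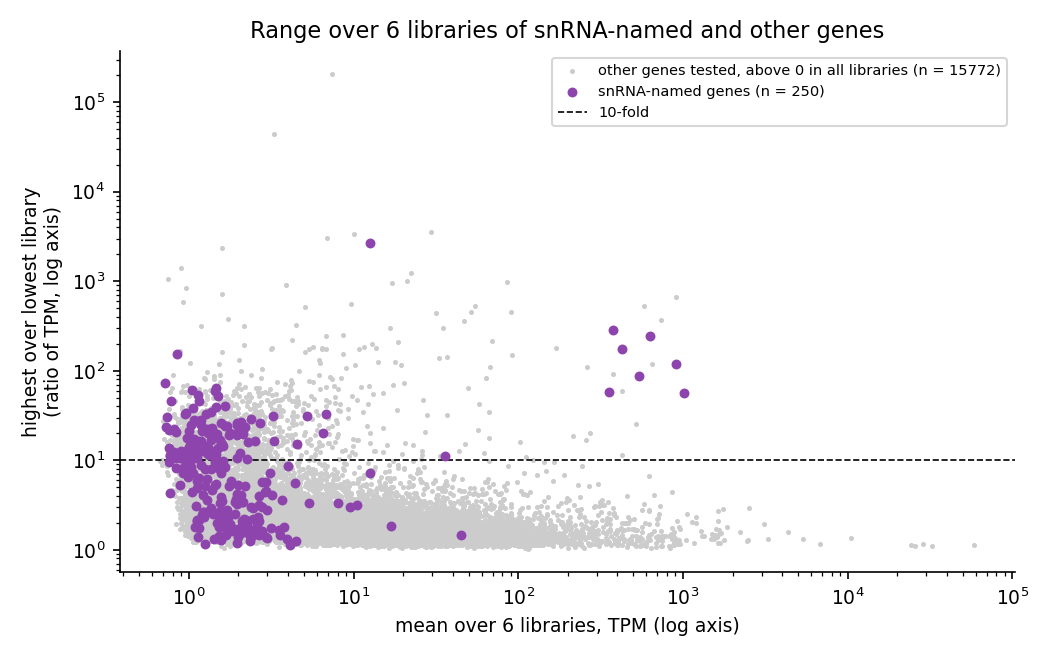
Ratio of the highest to the lowest of 6 libraries (log axis) against mean TPM (log axis) for the 250 tested snRNA-named genes above 0 in all libraries (purple) and the 15772 other such genes (grey), with a dashed line at 10-fold. The U1 genes of the identical set and RNU2-2P form the group of purple points between 354 and 1022 TPM, at ratios of 56.5 to 286.

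The assembler gives each transcript a locus, and an snRNA-named gene was either alone in its locus or shared it with other transcripts. Of the 269 members tested, 179 were alone in every library that listed them, 7 were always shared, and 83 were in both states. Among the 83, the level was higher in every library with the gene alone than in every library with a shared locus for 43, lower for 3 (RNU2-2P among them), and overlapping for 37. The median ratio of the level alone to the level shared was 2.52. A range of 10-fold or more was seen in 57 of these 83 and in 74 of the 186 members with a single state.

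The number of members with a shared locus differed between the siRNA groups. The members tested with a shared locus numbered 30, 33 and 22 in PSENEN siRNA libraries 1 to 3 and 46, 47 and 41 in mismatch siRNA libraries 1 to 3, without overlap. The mismatch siRNA libraries also held more assembled transcripts, 185198 to 193153 against 167955 to 181298. Estimated depth was 11.9, 11.3 and 9.16 gigabases in PSENEN siRNA libraries 1 to 3. In mismatch siRNA libraries 1 to 3 it was 15.6, 13.7 and 11.5 gigabases, and the part of depth in these counts was not tested. For 4 of the 83 members with both states, the state followed the group completely, alone in all PSENEN siRNA libraries and shared in all mismatch siRNA libraries. These were RNU2-2P, RNU1-124P and RNU6-1284P, which are 3 of the 4 members called, and RNU1-1, whose levels overlapped. For these genes the siRNA and the state of the assembled locus cannot be told apart.

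**Figure D5:**
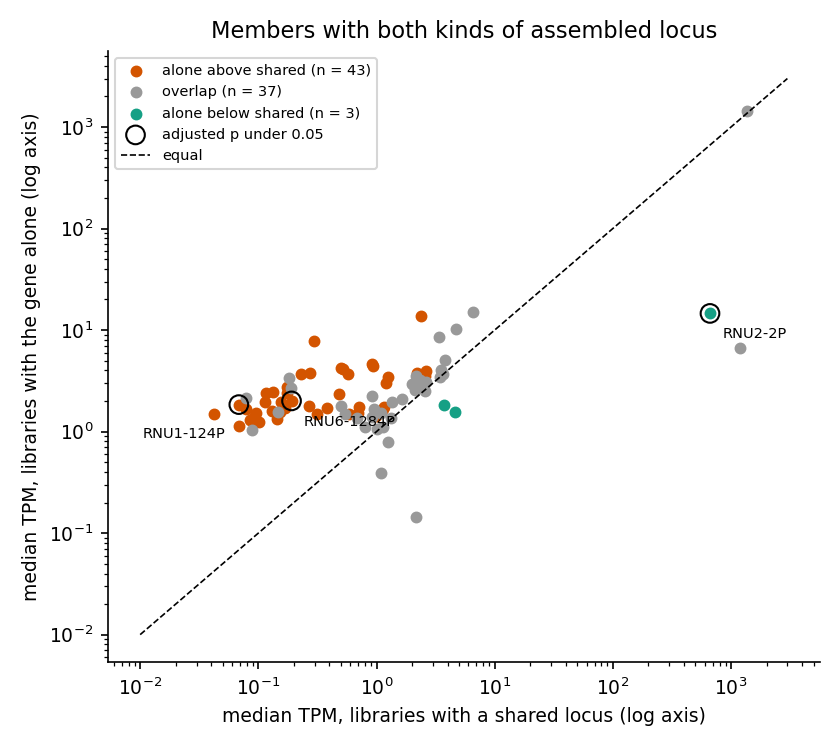
Median TPM (log axes) of the 83 members with both kinds of assembled locus, in libraries where the gene was alone (vertical axis) against libraries where the locus was shared (horizontal axis). Orange points are the 43 members higher whenever alone, green the 3 lower whenever alone, grey the 37 that overlapped, and rings mark members with an adjusted p under 0.05, with RNU2-2P far below the line of equality and RNU1-124P and RNU6-1284P above it.

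Of 119 tested genes for protein partners of the snRNAs, none was called. Over all 16457 genes tested 0.504% were called, so few or no calls are usual in lists of this size. None of the 17 Sm and LSm ring proteins had an adjusted p under 0.05, with a median change of -0.09 and 11 negative values, and SmD2 (SNRPD2) had 145, 127 and 132 TPM against 135, 135 and 137 TPM. None of the 40 proteins specific to single snRNPs was called (median change -0.08), among them SF3A1, a U2 protein, with 191, 183 and 160 TPM against 196, 146 and 144 TPM. None of 31 genes for snRNA transcription and 3′ cleavage was called (median -0.10), with 55.2, 52.6 and 51.6 TPM against 54.6, 70.3 and 57.6 TPM for the transcription factor SP1. None of 31 genes for maturation, export and import was called either (median -0.14), and the export receptor XPO1 had 144, 146 and 156 TPM against 176, 157 and 140 TPM. Over these 4 lists the groups did not overlap for 1 higher gene (0.840%) and 15 lower genes (12.6%) of the 119 tested, against 7.83% and 14.4% of all genes tested.

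Other short noncoding RNAs of the same libraries ranged from far more abundant than the snRNA-named genes to barely listed. RN7SL1, the RNA of the signal recognition particle, had 62219, 58379 and 60385 TPM with PSENEN siRNA and 54568, 55302 and 59097 TPM with mismatch siRNA, which overlapped (adjusted p = 0.738, limma). Of the 23 genes in this list 17 were tested and none was called (median change -0.06), beside 0.504% of all genes tested. Single genes of this list ranged from stable to variable over the 6 libraries. RN7SK had 26688 to 31331 TPM, RMRP 24603 to 27012 TPM and SCARNA5 204 to 237 TPM. The snoRNA SNORD118 had 30.4, 1.66 and 36.1 TPM against 0.521, 11.8 and 24.3 TPM, and the Y RNA RNY4 did not exceed 0.331 TPM. The genes of this list other than RN7SL1 were named after their values were seen. The 23 snRNA reference genes all had a value, and of the 19 tested RNU1-3 was called higher and RNU2-2P lower, 10.5% against 0.504% of all genes tested, in a list chosen with these results known.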

How the data were processed

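Total RNA of 6 libraries was sequenced, and the authors deposited 1 transcript assembly per library, made with StringTie per the file lines. Each transcript carries TPM, FPKM and coverage per base as deposited by the authors, and the other fields of the same text column were read as keys. For the aligner, the version and options of StringTie, read length and strandedness the value is "not given in the sources used here", so a gene and an antisense neighbour cannot be told apart. The submitters' processing notes name Bowtie 0.12.2 with mm8 and mm9, builds of the mouse genome, whereas the files are human. Of 92476 reference transcripts named in the files, 90779 had the same position in GENCODE 29 (GRCh38), which was used for sequences and annotation. TPM summed to 886394 to 909066 per library, and no rescaling was done.

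The level of a gene was the TPM of its reference transcripts plus that of assembled transcripts sharing an intron with it. With limma 3.58.1 in R 4.3.3 the groups were compared for genes that reached 1 TPM in 3 or more libraries, in a two-sided test with a trend on log2(TPM + 1), which understates the change of low genes, where the siRNA group was the single term and left 4 residual degrees of freedom. A gene is called where its p, adjusted by Benjamini-Hochberg, is under 0.05, and the steps were tested on simulated data. Class sums were described without a test. Identity came from global alignment in Biopython 1.88, and parsing used Python 3.11.15, pandas 2.3.3 and NumPy 2.4.6, with matplotlib 3.10.9 for figures.

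The members and lists were chosen with earlier results of these data known. The text names every snRNA reference gene, every called member, the 3 members of highest mean in each class, the most abundant gene or up to 3 called genes of each other list, and PSENEN. Alternatives were pseudocounts of 0.1 and 5, other filters and scalings, FPKM, assembled bases (length times coverage per base, as a share of the library), reference transcripts only, no trend, array weights, a replicate block, and each library left out. Genes above 0 in all libraries, class sums with genes named only by class, and sums without members of mixed locus state were added after seeing the data. The sequences of U6 genes are not reported here.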

Additional observations from a re-analysis of the deposited data

How the results depend on the processing

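RNU2-2P fell in all 19 alternative fits, with changes of -5.58 to -4.99 and adjusted p of 9.70e-06 to 0.00279 (limma). RNU1-3 passed in 9 of 19, with adjusted p of 0.000391 to 0.212, and RNU1-124P and RNU6-1284P each in 7 of the 13 fits that tested them (0.0175 to 0.271). PSENEN passed in 5 of 19 (0.0393 to 0.231) and in none of those with a library left out. No direction changed in these fits.

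The 3 members called higher became 1 with a pseudocount of 0.1, a minimum of 5 TPM, FPKM or quantile normalization, and 0 with assembled bases or the replicate block, and leaving out 1 library gave 0 to 1 higher and 1 to 2 lower. The 83 calls over all genes became 55 with a pseudocount of 0.1, 142 with assembled bases, 132 with array weights, 6 with the replicate block and 9 to 12 with a library left out. Same-numbered libraries did not deviate together over all genes tested (correlations -0.0551, 0.0034 and -0.0135). This gave no sign of pairing, but a weak pairing could be missed. RNU2-2P was the 1 member called with the replicate block.

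The class log2 ratios moved by more than the spread within groups as follows; the other values did not, and the causes were not tested beyond what each omission removes. Without the most abundant member, U2 became 0.043, U4 -0.35, U11 0.94 and U12 5.72. With reference genes only, U2 became -5.58, U4atac 0.40, U6 -0.22 and U7 -0.13. U6 was 0.11 in both FPKM and assembled bases, U7 was 0.13 and 0.14, and U12 was -0.14 in assembled bases. U12 ranged from -0.13 (without PSENEN siRNA library 3) to 0.89 with a library left out. With genes named only by class, U2 was -2.96. Without members of mixed locus state, U1 was 1.32, U2 -0.14, U4atac -0.11, U7 0.12, U11 1.51 and U12 5.72. With 3 libraries a group and no counts, depth sets no limit that can be stated for copies under 1 TPM, and RNA of identical copies cannot be told apart.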
